A study of Obba rivulosa with 6 samples.

Results

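The gene expression of Obba rivulosa at the 2 ends of a long culture on spruce wood was compared, with 8 weeks of growth set against 2 weeks. The comparison rested on 4 of the 6 libraries of the series, 2 labelled 2 weeks growth and 2 labelled 8 weeks growth, chosen by these labels alone. All of them came from the monokaryotic strain 3 A-2, for which the labels also name the dikaryotic strain FBCC1032. It was grown on sticks of Norway spruce (Picea abies) over 1% water agar, at 28 °C in the dark, and by their labels the groups differed only in the time of sampling. The other 2 libraries, of week 4, served to estimate the spread between libraries and are given as levels. Whether libraries of one week came from separate cultures is not stated, and the p-values cover only the spread among these libraries, which may be technical. A single monokaryon was used, so variation between strains was not measured.

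Obba rivulosa is a white-rot basidiomycete that grows on conifer wood. White-rot fungi break down lignin, cellulose and hemicelluloses with secreted enzymes. Oxidative enzymes such as peroxidases and laccases act on lignin, glycoside hydrolases act on the polysaccharides, and the sugars released feed the fungus. As wood decays, the accessible polymers and the nutrients left in the wood change, and fungi are known to adjust their secreted enzymes and their metabolism to this. The series followed gene expression over the time of growth, and none of these demands was measured here. Its files name gene models by JGI identifiers and do not pair them with products, so the accounts below are of numbered gene models and not of enzymes, and the identity of the fungus was not checked against marker genes.

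The 4 libraries held 4980809 and 5104386 expected counts at week 2 and 5078009 and 5154075 at week 8. Of 12424 gene models listed in at least 1 of the 6 libraries, 10889 passed the filter on low counts and were tested. Counts and FPKM (counts per kilobase of gene model, scaled to library size) describe shares of the fungal reads. Neither the amount of fungus in the wood nor the RNA per cell was measured, so less of a transcript per cell and fewer cells that make it cannot be told apart.

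In shares of all reads, 50% of the loss came from a small group of models, most of them very abundant at week 2. The gain, equal in total to the whole loss, was spread more thinly over many more models. The read share of each gene model, its percentage of all expected counts in a library, was averaged over the 2 libraries of a week. Between weeks 2 and 8, 3252 models lost read share and 9134 gained it. The losses summed to 27.9% of all reads, and so did the gains, since the shares of a library always sum to the whole. A fall of abundant models thus raises the share of every other model, also of those that do not change. Libraries of the same week differed in the same measure by 4.15% of reads at week 2 and 8.73% at week 8, while the 4 pairings of a week 2 with a week 8 library gave 27.9% to 28.9%.

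It took 48 models to make up 50% of the loss and 431 models to make up 50% of the gain. The 48 models held 15.2% and 16.2% of the reads in the week 2 libraries. Their share was 6.02% and 4.57% at week 4, then 1.88% and 1.56% at week 8. Their median level went from 1524 FPKM at week 2 to 79.3 FPKM at week 8. The 431 gaining models held 10.8% and 10.7% of the reads at week 2, 17.0% and 18.0% at week 4, then 24.4% and 25.0% at week 8, with median levels of 86.0 FPKM at week 2 and 232 FPKM at week 8. In the fit given below, 48 of the 48 losing models and 258 of the 431 gaining models were called changed. The median fold was 23.2 among the 48 and 1.84 among the 431. Reads shared with similar models, which make a level uncertain, were held by 7 of the 48 and 55 of the 431. In both groups the week 4 libraries lay between those of the ends. The groups were picked on weeks 2 and 8, so such a course is partly built in. Over all models, the pairings of a week 2 with a week 4 library differed by 26.6% to 30.7% of reads.

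The unequal spread was also seen when models were picked in one pair of libraries and measured in another. The 54 models that made up 50% of the loss between the replicate 1 libraries held 16.8% of the reads in week 2 replicate 2 and 1.78% in week 8 replicate 2. They accounted for 51.9% of the loss between these replicate 2 libraries, and 54 of 54 lost share there. The 426 models picked in the same way for the gain held 11.4% and then 24.6% of the reads, accounted for 45.7% of the gain, and 410 of 426 gained share. When shares of FPKM were used in place of counts, 34 models made up 50% of the loss and 278 models 50% of the gain. When the 10 top models of every library were dropped, the numbers were 93 and 535. The loss was held by fewer models than the gain under both of these settings. All of them use shares that sum to the whole, where a concentrated loss spreads a gain over the other models. These repeats therefore do not test how widely the gain is spread.

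**Figure D1:**
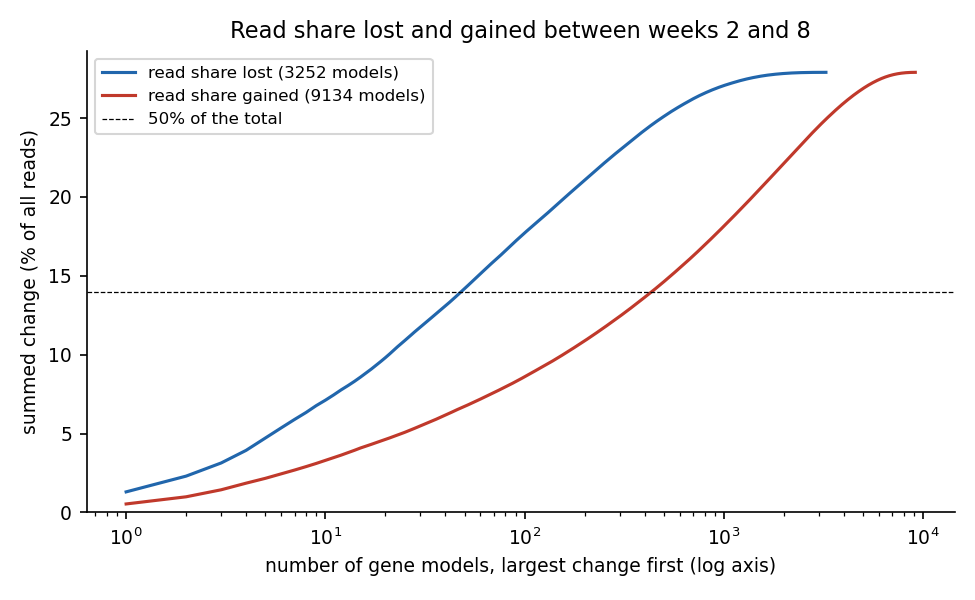
Summed read share lost (blue) and gained (red) between the week 2 and week 8 means, in % of all reads, against the number of gene models added, largest change first, on a log axis. The dashed line marks 50% of the total of 27.9%, which the loss reached with 48 models and the gain with 431.

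The model that lost most reads under the rule for named models was jgi|Obbri1|641437|CE641260_965, 1717 bases long. It stood at 7704 and 7623 FPKM in the week 2 libraries, at 243 and 271 FPKM in those of week 4, and at 62.8 and 168 FPKM in those of week 8. The week 2 libraries were alike, while the week 8 libraries differed from each other by more than those of any other week, and no library of week 8 came near those of week 2. Its mean read share went from 1.32% at week 2 to 0.0200% at week 8, and its rank by mean FPKM from 5 to 1272. The log2 fold change was -6.38 ± 0.49 (SE, n = 2 per week, adjusted p = 1.16e-05, edgeR quasi-likelihood test), an 83.4-fold lower level. Without week 8 replicate 2, the higher of the week 8 libraries, it was 152-fold, and without week 8 replicate 1 it was 57.5-fold. Fold changes here and below are on the TMM scale and so differ from ratios of FPKM, which is scaled to the total of a library. The rule, given below, picked all named models on a call and on no overlap between weeks 2 and 8. Their calls and the separation of these weeks are thus built in.

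Model jgi|Obbri1|790668|fgenesh1_kg.29_#_16_#_Locus15v1rpkm4662.60, 881 bases long, had the highest mean FPKM of all models at week 2. Its level was 12666 and 12282 FPKM in the week 2 libraries, 3141 and 3125 FPKM at week 4, then 733 and 1194 FPKM at week 8. Each week was lower than the one before it, with no overlap, and the model still ranked at number 56 at week 8. Between the ends it fell 16.3-fold, with a log2 fold change of -4.02 and an SE of 0.30 (edgeR, adjusted p = 6.21e-06). At week 8 its level was well above that of model 641437, which ranked at number 1272 by mean FPKM.

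The model that gained most reads was jgi|Obbri1|837109|gm1.7089_g, a short model of 339 bases. It stood at 1229 and 1078 FPKM in the week 2 libraries, 1895 and 1530 FPKM at week 4, then 15464 and 21360 FPKM at week 8. It was already abundant at the start, at rank 58, and had the highest mean FPKM of all models at week 8. Most of its rise lay after week 4, and the weeks did not overlap. It rose 12.7-fold, with a log2 fold change of 3.67 and an SE of 0.25 (edgeR, adjusted p = 3.66e-06).

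Model jgi|Obbri1|270645|CE270468_2354, 2061 bases long, followed another course, from a modest level to a very high one. It stood at 33.3 and 25.7 FPKM in the week 2 libraries, 23.0 and 118 FPKM at week 4, then 2058 and 2283 FPKM at week 8. The libraries were close to each other at both ends and far apart at week 4, where 1 library was below the week 2 level. Its rank by mean FPKM was 4502 at week 2 and 14 at week 8. It rose 58.7-fold, with a log2 fold change of 5.88 and an SE of 0.86 (edgeR, adjusted p = 0.00401). Its SE takes in the spread of the week 4 libraries. With only the 4 libraries compared, the SE was 0.23 (edgeR, adjusted p = 8.42e-07). The log2 fold change was 6.06 without week 2 replicate 1 and 5.71 without week 2 replicate 2. Both of these fits leave 1 library at week 2, and neither called the model changed.

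**Figure D2:**
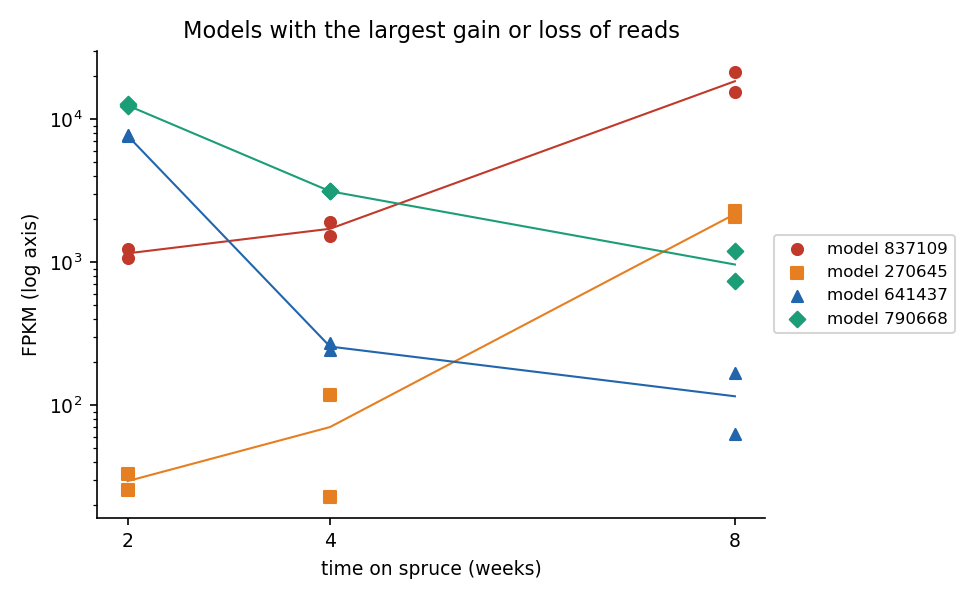
FPKM on a log axis of the 2 gene models with the largest gain (837109, 270645) and the 2 with the largest loss (641437, 790668) of CPM (counts relative to library size), against the weeks on spruce. Points are single libraries and lines join the means of the weeks; the week 2 points of models 641437 and 790668 lie at 7623 FPKM and above, and all their week 8 points at 1194 FPKM and below.

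The wider sets chosen by the same rule showed the same contrast in size. The rule required a call (adjusted p below 0.05, met by 26.9% of tested models), a weekly mean that reached 10 FPKM, no overlap between the weeks and no shared reads, and 2250 models met it. Among the 20 with the largest loss of CPM, the counts scaled to library size with TMM, the fold ranged from 5.82 to 1107 with a median of 41.6. As a group they held 8.58% and 9.40% of the reads at week 2, 1.57% and 1.27% at week 4, then 0.449% and 0.531% at week 8. Among the 20 with the largest gain the fold ranged from 2.69 to 61.3 with a median of 13.0. These held 0.570% and 0.511% of the reads at week 2, 1.27% and 1.06% at week 4, then 4.25% and 5.28% at week 8. For 17 of the 20 losing models both week 4 libraries lay between the levels of the ends, and for 11 of the 20 gaining models. Both sets were picked on the values of weeks 2 and 8, so these figures describe them and support no test.

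At the top of the range more models fell far than rose from far below. Gene models with a mean of 1000 FPKM or more numbered 71 at week 2 and 52 at week 8, and 21 models were in this class at both times. Of the 71, 22 were below 100 FPKM at week 8. Their median level was 1626 and 1840 FPKM in the week 2 libraries, 138 and 142 FPKM at week 4, then 26.2 and 40.4 FPKM at week 8. In the other direction, 4 models, among them 270645, were below 100 FPKM at week 2 and at 1000 FPKM or more at week 8. Their medians were 55.4 and 60.4 FPKM at week 2 and 1201 and 1592 FPKM at week 8. Of the 22 models, 2 held reads shared with similar models, and none of the 4 did.

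Across the whole range of levels most models kept their order of magnitude. With classes bounded at 1, 10, 100 and 1000 FPKM, 9944 of the 12424 listed models were in the same class at weeks 2 and 8. Another 1754 were 1 class higher at week 8 and 663 were 1 class lower. Moves across 2 or more classes were made by 23 models upwards and 40 downwards. FPKM is scaled to the total of a library, so the surplus of small upward moves includes a shift of most models: with limma on log2(FPKM + 1), the median change over the 11508 models with a mean of at least 1 FPKM was 0.34.

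Few models went from reads to no reads or the reverse. Expected counts were rounded for this, so a small fraction of a count was taken as no read. After rounding, no read was seen in both week 2 libraries for 189 models and in both week 8 libraries for 120 models. At both ends 41 models were without reads in this sense. None of the 189 reached 10 counts in both week 8 libraries. Of the 120, 2 models had at least 10 counts in both week 2 libraries, with 24 counts as the highest value. An observed 0 allows up to 3 counts per library, so most of these cases are at the limit of the depth.

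The fit over all models called 1435 of 10889 models higher at week 8 (13.2%) and 1496 lower (13.7%), together 26.9%, at an adjusted p below 0.05. At 2-fold or more, 1746 models (16.0%) were called, 843 higher and 903 lower. With TMM, both directions were alike in number at moderate folds, and lower models outnumbered higher ones at large folds. Between 2-fold and 4-fold 574 models were higher and 576 lower, between 4-fold and 8-fold 174 and 188, between 8-fold and 16-fold 57 and 63, and between 16-fold and 32-fold 29 and 35. Beyond 32-fold there were 9 higher and 41 lower models. A further 3 called models had no read at one end after rounding and no finite fold, 1 of them higher and 2 lower at week 8. The higher one had only 4 and 3 counts at week 8, near the 3 counts that an observed 0 allows. The lower ones had 14 and 20 and 24 and 17 counts at week 2. Shared reads were held by the higher one and by 1 of the lower ones. The median called change was 2.21-fold among higher and 2.24-fold among lower models.

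The split by direction depended on the scaling. TMM, used here, assumes that most models do not change, and gave a median log2 fold change of 0.05 over the tested models. With total counts only, the median was 0.37, the number called was 4533 and 78.1% of these were higher at week 8, against 49.0% with TMM. The split of the calls at 2-fold or more moved from 48.3% to 70.2% higher. Beyond 32-fold, 18 were higher and 34 lower with total counts only, and lower models outnumbered higher ones under each of the 16 alternatives. A fit of only the 4 libraries compared called 3775 models, against 2931 with the week 4 libraries included. Leaving out week 2 replicate 1 gave 1685 called models, leaving out week 2 replicate 2 gave 1754, and leaving out week 8 replicate 2 gave 1944. The count at 2-fold or more was less affected, with 1466 to 1845 models when any 1 library was left out.

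**Figure D3:**
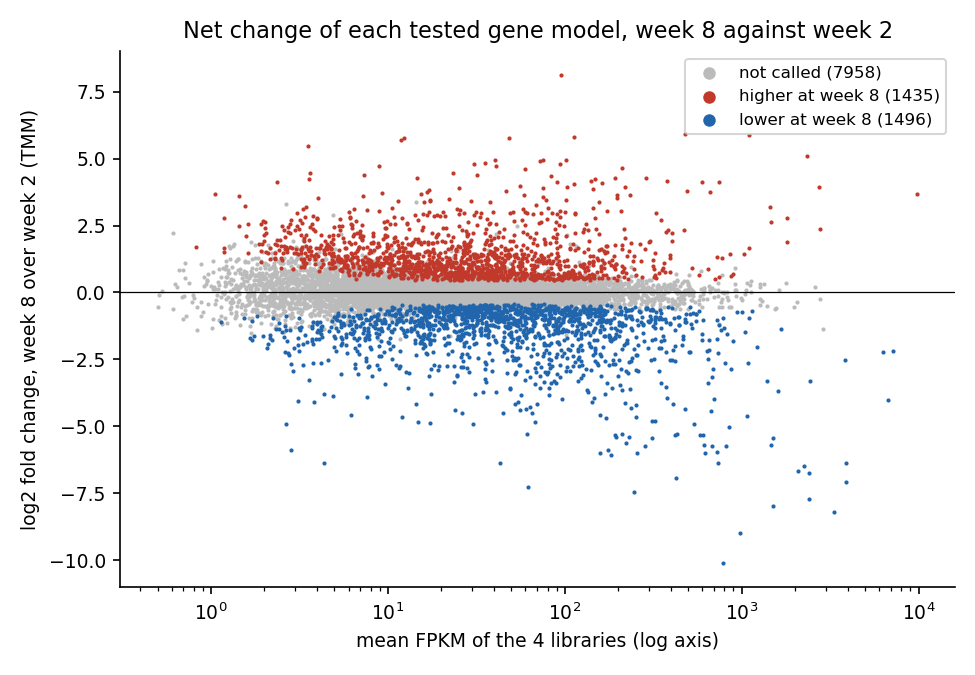
Log2 fold change of week 8 over week 2 (TMM) for the tested gene models against their mean FPKM over the 4 libraries, on a log axis. Red points are the 1435 models called higher and blue points the 1496 called lower at week 8, of which the 3 without a finite fold are not drawn; the deepest falls sit among models with high mean FPKM.

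For many models the change between the ends was bounded. The 95% interval of the fold change lay within 2-fold for 6386 models (58.6% of those tested), 325 of which were called changed. The share ranged from 43.8% to 63.7% of the models tested over the 16 alternatives and was under 50% in 7 of them, with total counts only, DESeq2, limma on log2(FPKM + 0.1) and without any 1 of the libraries of weeks 2 and 8. DESeq2 and the fit without the filter covered 12421 models, with low counts included, and gave 45.4% and 51.7%. In the fit of 10889 models, the call was made for 911 models (8.37%) and the whole interval lay beyond 2-fold. For 1897 models (17.4%) no change was called but the interval reached 2-fold, so a change of that size was neither called nor bounded by these libraries. These intervals were not adjusted for multiple tests.

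Changes measured in separate libraries resembled each other. The log2 ratio of week 8 replicate 1 over week 2 replicate 1 and that of week 8 replicate 2 over week 2 replicate 2 share no library, and correlated with Pearson's r of 0.895 and Spearman's rho of 0.755 across the 10889 tested models. With the libraries crossed the values were 0.909 and 0.794. The agreement was closer among models of 10 FPKM or more (r = 0.924, 8372 models) than among those below (r = 0.725, 2517 models). Genes are not independent replicates, and all ratios share the scaling of their libraries. For 7590 models (69.7%) the CPM values of the 2 weeks did not overlap. With 2 libraries per week such a separation is common without a change, so this count is no measure of how many models changed.

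**Figure D4:**
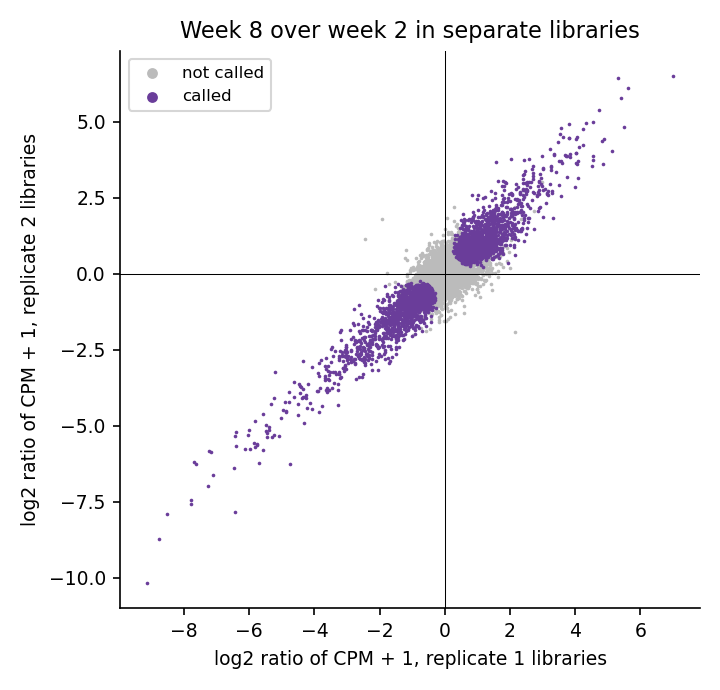
Log2 ratio of (CPM + 1), week 8 over week 2, in the replicate 1 libraries against the same ratio in the replicate 2 libraries, for 10889 gene models. Purple points are called models and grey points are not; the points follow the diagonal with Pearson's r of 0.895.

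The models called lower held 40.4% and 40.6% of the reads in the week 2 libraries and 13.8% and 13.5% in the week 8 libraries, and those called higher went from 5.62% and 5.50% to 18.7% and 19.8%. Both sets were defined by the call between weeks 2 and 8, so these shares describe them and support no test. In the week 4 libraries 23.9% and 20.3% of the reads lay in the lower set, against 11.7% and 11.2% in the higher set. Models that were tested and not called made up the balance, with 53.9% and 53.8% at week 2, 64.3% and 68.4% at week 4, then 67.5% and 66.6% at week 8. Their median level was 21.9 and 21.7 FPKM at week 2 and 27.9 and 28.0 FPKM at week 8. The share of the uncalled models was therefore higher in both week 8 libraries than in both week 2 libraries. Which scaling is nearer to the amounts per cell was not tested.

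Long and short gene models were called to a like extent. Tested models were split into 4 length groups of near equal size. In the shortest group, 150 to 913 bases, 12.8% of models were called higher and 12.2% lower. In the longest group, 1949 to 15290 bases, 11.2% were called higher and 12.9% lower. The most calls fell in the middle groups, with 15.4% higher and 13.7% lower from 914 to 1360 bases and 13.3% higher and 16.2% lower from 1361 to 1948 bases. The median absolute log2 fold change was 0.43 in the shortest group and 0.27 in the longest, while the median level was 22.3 and 29.2 FPKM, so that longer models also had more counts. The mean length of the gene models, weighted by their reads, was 1881 and 1897 bases in the week 2 libraries, 1985 and 2096 bases at week 4, then 2023 and 1909 bases at week 8. The difference between weeks 8 and 2 was 77.0 bases (exact two-sided permutation test, p = 0.333, the smallest that 2 against 2 libraries allow).

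Some models hold reads shared between similar sequences. Among 1226 such models 16.6% were higher and 14.0% lower at week 8, against 12.7% and 13.7% of the 9663 models with whole counts throughout. Their levels are uncertain, because the authors' estimates divide reads between similar models. The identifiers also carry the prediction program behind each model, and the share called varied among these 13 series from 8.77% to 17.7% higher and from 8.33% to 17.0% lower. The highest share of higher models, 17.7% of 266, was in the series fgenesh1_pg, whose median level of 12.9 FPKM was below that of all tested models, 27.1 FPKM.

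Models close to each other in the genome were compared through their names. By JGI's naming convention, which the files do not state, names of several series carry the number of the scaffold and of the order along it. These numbers were used for 8 series in which the protein IDs ran in the same order throughout, and 2 series whose IDs did not were left out. Most pairs came from 1 series, fgenesh1_kg, which gave 529 of the 693 consecutive pairs before the filter on low counts. Among 588 pairs of tested models with consecutive order numbers, on 210 scaffolds, Spearman's rho of the log2 changes was 0.21 and Pearson's r was 0.16. The rho was 0.07 at a gap of 2, 0.08 at gaps of 3 and of 4 to 5, 0.03 at gaps of 6 to 10 and of 11 to 20, and 0.02 at gaps of 21 to 30. At consecutive numbers it ranged from 0.14 to 0.21 over the alternatives, and it describes a weak relation across models that share libraries and scaling. In 38 of the 588 pairs (6.46%) both models were called in the same direction and in 11 (1.87%) in opposite directions. At gaps of 21 to 30 the shares were 3.58% and 2.78% of 3349 pairs. Without shared-read models the neighbouring pairs gave a rho of 0.17, with 29 pairs in the same and 11 in opposite directions. Overlapping models can share reads where the strand was not counted, which the sources used here do not state, and the part of this in the likeness of neighbours was not tested.

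**Figure D5:**
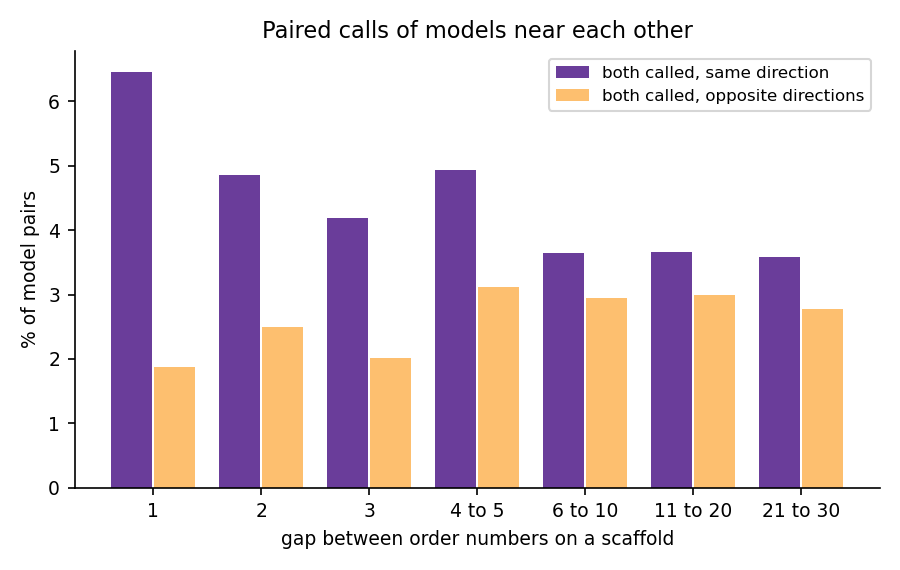
Percentage of gene model pairs on one scaffold in which both models were called changed in the same direction (purple) or in opposite directions (orange), by the gap between their order numbers. At a gap of 1 the bars stand at 6.46% and 1.87%, and at gaps of 21 to 30 at 3.58% and 2.78%.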

How the data were processed

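Per the file headers, each deposited table lists gene models with their length, an expected count and an FPKM value, in columns of the kind RSEM writes. The tools BWA, Bowtie and RSEM come from the submitters' processing notes, while versions, settings, build and strandedness were not given in the sources used here. Expected counts are the authors' estimates, without normalization. The FPKM values were scaled by the authors for model length and library size. Models missing from a table were taken as 0.

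Rounded expected counts entered edgeR 4.0.16 (quasi-likelihood test) in R 4.3.3. TMM scaling, filterByExpr (minimum count 10) and a robust fit with a mean per week over all 6 libraries were used. Adjusted p-values (Benjamini-Hochberg) covered all 10889 tested models, with calls below 0.05. The procedure was tested on simulated data with 200 changed models, raised and lowered in equal number. That run did not test the scaling under a change as wide as the one called here. SEs and 95% intervals were derived from the F statistic. Levels are FPKM. Shared-read models are those with a fractional expected count in any library.

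Named models are the 2 with the largest gain and the 2 with the largest loss of TMM-scaled CPM (counts relative to library size) among called, non-overlapping models without shared reads whose higher weekly mean reached 10 FPKM. The members, this rule and all analyses were chosen with earlier results of these data known; the counts of models behind 50% of the gain and loss and the level classes were defined after the data were seen. The limit of 3 counts for an observed 0 covers counting error only. Alternatives were limma 3.58.1 with pseudocounts of 1 and 0.1 added to FPKM before the log2, DESeq2 1.42.0, other scalings, no filter, 4 libraries only, a replicate term, no shared-read models and each library left out.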

Additional observations from a re-analysis of the deposited data

How the results depend on the processing

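The number of changed models was 2931, and 4533 with total counts only; leaving out 1 library gave 1685 to 3857. The percentage of them higher at week 8 was 49.0%, and became 46.1% with size factors (RLE), 53.4% with upper quartile scaling, 78.1% with total counts only, 46.9% with only the 4 libraries compared, 43.7% with DESeq2, 77.5% and 77.4% with limma on log2(FPKM + 1) and log2(FPKM + 0.1), and 43.5% to 50.6% with 1 library left out. The median log2 fold change of 0.05 became 0.019 with RLE, 0.092 with upper quartile scaling, 0.37 with total counts only, 0.042 without the filter, 0.0082 with 4 libraries, 0.018 with DESeq2, 0.34 and 0.37 with limma, and 0.037 to 0.048 with 1 library left out. The cause of these shifts was not tested beyond the scaling itself. The read share that changed hands, 27.9%, became 30.7% from FPKM, 26.7% without shared-read models, 24.1% when the 10 top models of every library were dropped and 28.9% in replicate 2 alone. The 48 models behind 50% of the loss became 93 with those dropped, and the 431 behind the gain 278 from FPKM; both were alternatives chosen after seeing the data. The counts at 2-fold or more and of intervals within 2-fold stayed within 1.5 times under all 16 alternatives. The difference in read-weighted length ranged from 19.98 to 134.1 bases with 1 library left out. All 64 fold changes of the named models kept their direction and 62 their call, the exceptions being model 270645 without either week 2 library.

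The labels give the same replicate numbers to each week but no shared batch. The differences between replicates 1 and 2 correlated with r = -0.07 between weeks 2 and 8, so the numbers were not treated as pairs; with a replicate block 2717 models were called, 2676 of them among the 2931. Leaving out a library leaves its week with 1, which is then assumed to vary like the others.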
